A study of Mus musculus with 5 samples.

Results

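The amino acid transporter genes described here are those of 7 solute carrier families, Slc1, Slc3, Slc6, Slc7, Slc36, Slc38 and Slc43, measured in granulosa cells of the mouse ovary. Genes of these families were taken by symbol, which gave 63 genes of the 18194 named on the arrays. The choice was made with earlier results of these data known. Of the 63, 60 are transporter genes and 3 (Slc36a1os, Slc6a19os and Slc7a6os) are named as opposite-strand neighbours of one. Where a gene had several probe sets, the one brightest on average over the 5 arrays stood for it. Of the 63 genes, 20 lay under an intensity of 22 on all 4 arrays of 8 h and 24 h, a floor that 40 percent of all values lie below, and 43 reached it on at least 1.

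The series held 5 Affymetrix arrays, 1 for each of 5 groups, with no replicates. All mice had first been primed for 48 h with equine chorionic gonadotropin (eCG), a hormone that makes follicles grow. Human chorionic gonadotropin (hCG) was then given as the ovulatory signal. Wild-type granulosa cells were collected 8 h and 24 h after hCG. Cells with the alleles CEBPα/β fl/fl fl/fl and the transgene Cyp19-cre, called the knockout below, were collected 4, 8 and 24 h after hCG. The mice were 23 days old at 4 h and 8 h and 24 days old at 24 h. Cyp19-cre uses the promoter of the aromatase gene, which limits the deletion of both C/EBP transcription factors to cells that use that promoter, chiefly granulosa cells. The labels do not say how many mice an array stands for, or whether the wild-type mice carried floxed alleles.

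Cells take up amino acids through carriers that divide the work by substrate and by driving force. Sodium-coupled carriers of the Slc1, Slc6 and Slc38 families load the cell, and exchangers of the Slc7 family then trade 1 amino acid for another. Many Slc7 proteins are light chains that reach the membrane only when bound to a heavy chain, Slc3a2 (CD98) or Slc3a1. They supply glutamine, cystine for glutathione, and the building blocks of the proteins that a growing or luteinizing cell makes.

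With 1 array per group no test was possible, and no difference below has a p-value. A gene was called higher or lower when there was a 2-fold or greater gap between its intensities and the higher of both values reached the floor. A fold whose lower value was under the floor was computed from the floor instead and is written "at least". Differences are knockout minus wild type, or 24 h minus 8 h, on the log2 scale. The number of arrays limits the precision. For transporter genes with several probe sets above the floor, the SD between probe sets of a gene was 0.185 (log2) for the genotype difference at 8 h (15 genes) and 0.234 at 24 h (16 genes). It was 0.343 for the change over time in wild type and 0.395 in the knockout. This spread lies between probe sets read on the same arrays, and it leaves out differences between arrays and between mice. Intensities of different probe sets are not set against each other.

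The arrays of 8 h and 24 h had median intensities of 31 or 32, and the knockout array of 4 h one of 54, so that it was not on their scale. Cebpa was 685 in wild type against 19 in the knockout at 8 h, and 352 against 38 at 24 h. Cebpb was 7436 against 1127 at 8 h and 3976 against 85 at 24 h. All 14 granulosa cell markers named on the arrays lay above the floor on every array. Markers of other cells were present as well and differed between genotypes: at 8 h, 14 of 15 endothelial markers and 13 of 15 stroma and smooth muscle markers were lower in the knockout, and at 24 h 3 of 14 and 3 of 15 were. The summed intensity of the endothelial markers was 2557 in wild type against 797 in the knockout at 8 h, and 1595 and 875 at 24 h. That of the stroma markers was 29582 and 6645 at 8 h, and 19628 and 13272 at 24 h. Of 7 theca markers 3 were lower at 8 h, and at 24 h none of 6 was lower and 1 was higher. The summed intensity of the theca markers was 6631 in wild type against 3572 in the knockout at 8 h, and 3748 and 10161 at 24 h. Of the leukocyte markers 4 of 14 were lower and 1 higher at 8 h and 3 of 13 lower at 24 h. Of 10 luteal markers, the knockout had 3 lower at 8 h and 4 lower at 24 h, and of 14 granulosa markers 1 was lower at 8 h and 3 were higher at 24 h. At most 3 of the endothelial markers and none of the stroma markers lay under the floor on any array. In bulk RNA, fewer cells of a type and less RNA per cell cannot be told apart.

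At 8 h the genotypes differed in few transporter genes. In the knockout 2 of 43 genes above the floor were lower, Slc1a5 and Slc7a2, and none was higher. Over all 12924 genes above the floor, 4.05% were lower and 1.58% higher, so the share of transporter genes, 4.65% lower, was near the background. At 24 h, 4 of 42 were lower in the knockout, Slc1a5, Slc7a2, Slc3a2 and Slc7a8, and none was higher. That share was 9.52%, where 3.92% of all 13052 genes were lower and 3.13% higher. The median difference of the transporter genes was 0.02 at 8 h and -0.05 at 24 h, against -0.01 and 0.05 for all genes. At 24 h 33 of the 42 lay within 0.5 of wild type on the log2 scale.

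**Figure D1:**
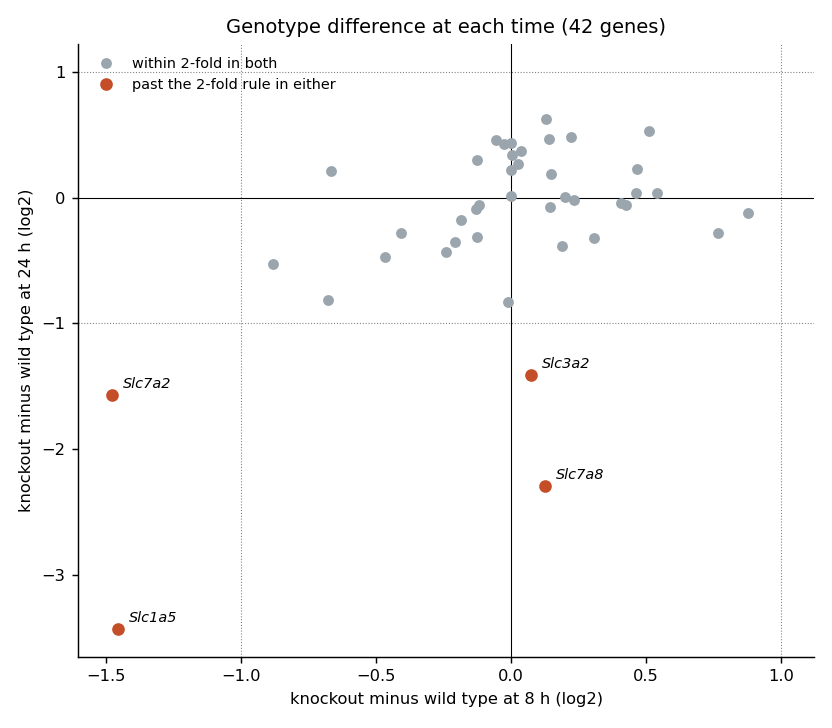
Log2 difference between knockout and wild type at 8 h (horizontal axis) and at 24 h (vertical axis) for the 42 transporter genes above the floor at both times, each point 1 gene from single arrays. The dotted lines mark a 2-fold difference. Slc1a5 and Slc7a2 lie below -1 on both axes, Slc3a2 and Slc7a8 below -1 on the vertical axis alone, and no gene lies above 1 on either.

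Slc3a2 encodes the CD98 heavy chain, which carries several Slc7 light chains to the cell surface. Its intensity was 5950 in wild type against 6262 in the knockout at 8 h, and 3250 in wild type against 1222 in the knockout at 24 h. The 8 h arrays were alike and the knockout array of 24 h was the lowest. At 24 h Slc3a2 was 2.66-fold lower in the knockout (log2 difference -1.41). Within the knockout it fell 5.12-fold from 8 h to 24 h. In wild type the same change was -0.87, short of the rule.

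Slc7a8 encodes LAT2, a light chain that pairs with CD98 and exchanges neutral amino acids. It was 4243 in wild type against 4629 in the knockout at 8 h, and 1199 in wild type against 245 in the knockout at 24 h. Like its heavy chain, it was alike in both genotypes at 8 h and lowest in the knockout at 24 h. It fell 3.54-fold over this time in wild type and 18.9-fold in the knockout, and at 24 h the knockout was 4.89-fold lower (-2.29). Slc3a2 and Slc7a8 each have a single probe set on the array, so neither has a second reading there.

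The promoters of both genes are shown because their transcripts fell further in the knockout than in wild type, and that of Slc7a11 because its transcript fell in both genotypes. Each line gives the 250 bases before the transcription start, from RefSeq on build GRCm38.p6, 5′ to 3′ on the gene's own strand. Capitals mark matches, on either strand, to 3 motifs: the C/EBP-ATF composite element TGATGNAAN, the C/EBP core TTGCNNAA and the antioxidant response element TGACNNNGC. Slc3a2 lies on the minus strand at chr19:8713898-8714147, Slc7a8 on the minus strand at chr14:54781887-54782136 and Slc7a11 on the minus strand at chr3:50443614-50443863.
Slc3a2: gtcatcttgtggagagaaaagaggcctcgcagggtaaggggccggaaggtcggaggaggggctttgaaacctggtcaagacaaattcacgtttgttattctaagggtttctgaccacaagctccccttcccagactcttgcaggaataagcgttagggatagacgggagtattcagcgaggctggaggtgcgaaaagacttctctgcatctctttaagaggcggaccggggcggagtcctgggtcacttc
Slc7a8: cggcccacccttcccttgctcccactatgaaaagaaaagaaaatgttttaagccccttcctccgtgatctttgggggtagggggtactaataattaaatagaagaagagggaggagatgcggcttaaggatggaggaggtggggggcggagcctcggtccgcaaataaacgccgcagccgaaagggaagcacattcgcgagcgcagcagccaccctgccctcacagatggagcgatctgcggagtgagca
Slc7a11: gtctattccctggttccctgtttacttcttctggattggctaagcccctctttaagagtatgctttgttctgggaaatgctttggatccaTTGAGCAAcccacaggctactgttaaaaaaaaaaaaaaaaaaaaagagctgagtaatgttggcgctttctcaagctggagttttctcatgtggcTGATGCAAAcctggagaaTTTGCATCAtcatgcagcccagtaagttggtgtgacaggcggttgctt

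The windows of Slc3a2 and Slc7a8 held none of the 3 motifs. The window of Slc7a11 held 2 composite elements in opposite orientation, TGATGCAAA from 66 to 58 and TTTGCATCA from 48 to 40 bases before the start, and 1 C/EBP core, TTGAGCAA, from 160 to 153. None of these matches overlapped another. Of all 32851 promoter windows, 3.44% held the composite element, 0.0396% held it at 2 or more positions, 9.56% held the C/EBP core and 10.2% the antioxidant element. Among the transporter genes 46 of 63 had a window in the table, 67 windows in all. Slc1a5, Slc7a2 and Slc38a3 had none, so their promoters were not searched. Of these 67 windows, 4 held the composite element, 9 the C/EBP core and 10 the antioxidant element. By gene, the composite element was found for 3 (Slc7a11, Slc7a7 and Slc6a21), and the C/EBP core and the antioxidant element for 9 each. The shares over all promoters are per window and not per gene. A match is a run of letters and not a measured binding site.

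Slc7a11 encodes xCT, the light chain that brings cystine into the cell in exchange for glutamate and so feeds glutathione synthesis. It was 305 in wild type against 410 in the knockout at 8 h, and 25 and 24 at 24 h. Both arrays of 24 h were close to the floor, and both of 8 h far above it. The gene fell 12.2-fold in wild type and 17.1-fold in the knockout. A second probe set gave 408 and 489 at 8 h and 15 in both genotypes at 24 h, a fall of at least 18.5-fold in wild type and at least 22.2-fold in the knockout. The genotypes differed by 0.43 at 8 h and -0.06 at 24 h, neither past the rule.

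The remaining CD98 partners passed the rule between genotypes at neither time. Slc7a5 encodes LAT1, the carrier of leucine and other large neutral amino acids. It was 641 in wild type against 590 in the knockout at 8 h, and 1240 and 1188 at 24 h, so both arrays of 24 h were about as far above those of 8 h. The rise was 2.01-fold in the knockout, just past the rule, and 0.95 on the log2 scale in wild type, just short of it. The genotype difference was -0.12 at 8 h and -0.06 at 24 h. At 24 h, then, the genotype difference was -1.41 for the heavy chain Slc3a2 and -2.29 for Slc7a8, against -0.06 for Slc7a5.

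Slc7a6 and Slc7a7 encode light chains that exchange cationic for neutral amino acids. Slc7a6 was 625 and 713 at 8 h in wild type and knockout, and 560 and 429 at 24 h, a difference of -0.38. Slc7a7 was 43 and 57 at 8 h and 75 and 73 at 24 h. Neither passed the rule in any of the 4 comparisons. Slc7a10, a light chain for small neutral amino acids, stayed between 22 and 26, at the edge of the floor. Slc3a1, the heavy chain of the kidney and gut, and its partner Slc7a9 lay under the floor on these 4 arrays.

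**Figure D2:**
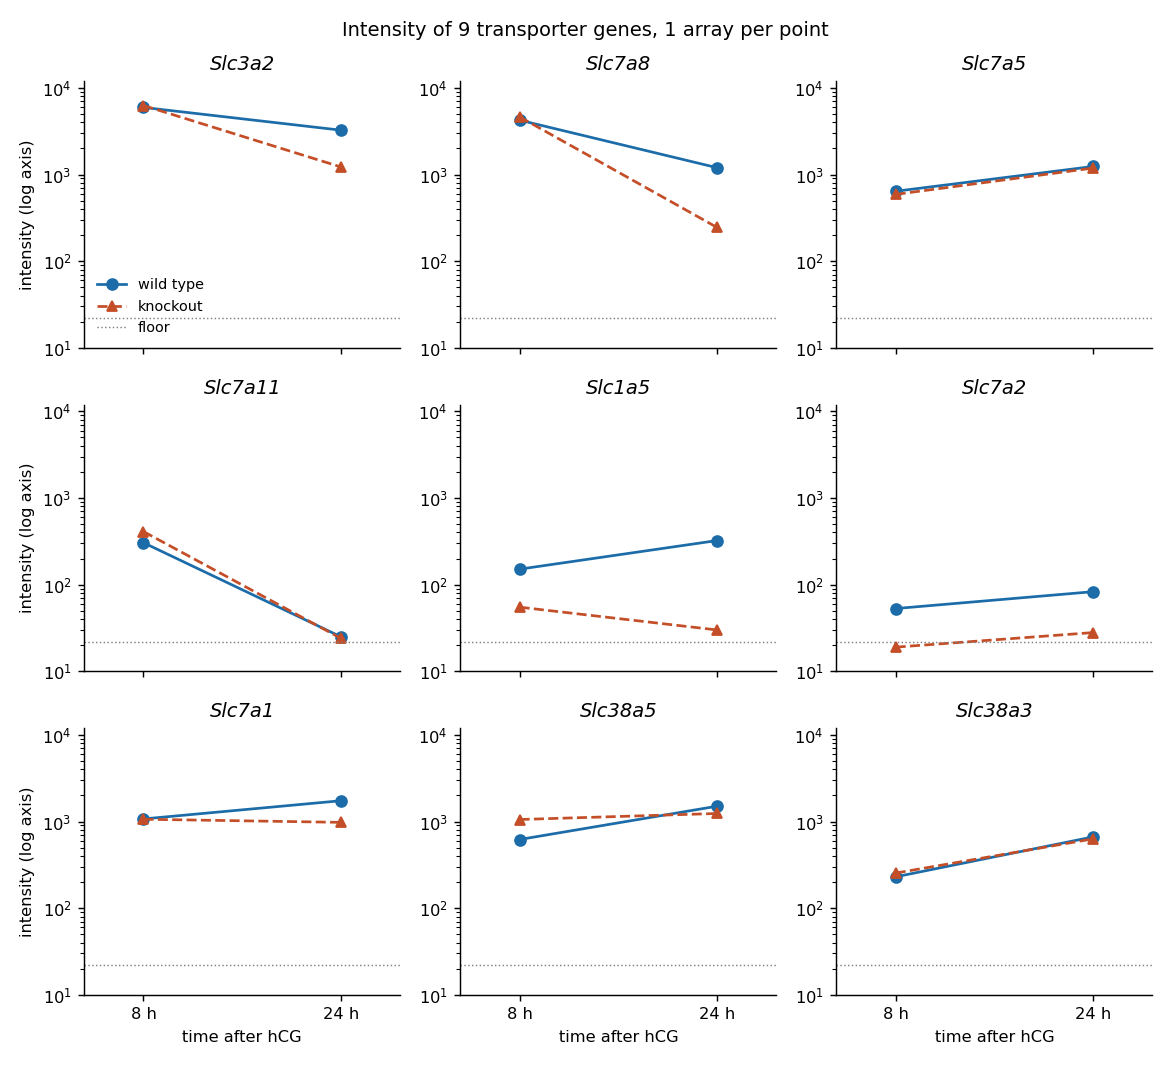
Intensity (log axis) of 9 transporter genes at 8 h and 24 h after hCG, each point 1 array, with circles and solid lines for wild type, triangles and dashed lines for the knockout and a dotted line at the floor of 22. Slc3a2 and Slc7a8 start alike and separate at 24 h, Slc7a11 drops to the floor in both genotypes, and Slc1a5 and Slc7a2 are lower in the knockout at both times.

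Slc1a5 encodes ASCT2, a sodium-dependent exchanger of neutral amino acids and a main route for glutamine. Its intensity was 151 in wild type against 55 in the knockout at 8 h, and 323 and 30 at 24 h. Wild type was the higher at both times, and the gap was wider at 24 h, where the knockout value was not far above the floor. The knockout was 2.75-fold lower at 8 h (-1.46) and 10.8-fold lower at 24 h (-3.43), the largest genotype difference among the 63 genes by either direction. Over time Slc1a5 rose 2.14-fold in wild type, and in the knockout the difference was -0.87, short of the rule. Its second probe set stayed between 19 and 24 on these arrays, at or near the floor, and with the mean of both probe sets the calls at 8 h (-0.69) and over time in wild type (0.72) were lost. Most stroma and endothelial markers were lower on the same knockout array at 8 h, and at 24 h their medians were -0.44 and -0.77. Their part in the differences of Slc1a5 was not tested at either time.

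No other Slc1 gene passed the rule. Slc1a4 encodes ASCT1, a related carrier of alanine, serine and cysteine. On its chosen probe set it was 93 in both genotypes at 8 h and 123 and 124 at 24 h. Its other probe sets were higher in the knockout at 8 h (0.33 and 0.34) and lower at 24 h (-0.53 and -0.51), short of the rule. The glutamate carrier Slc1a6 was 40 and 25 at 8 h and 37 and 21 at 24 h, short of the rule in both genotype comparisons, 1.60-fold lower in the knockout at 8 h and, against the floor, at least 1.68-fold lower at 24 h. The glutamate carriers Slc1a2, Slc1a3 and Slc1a7 lay between 22 and 48 and passed the rule in none of the comparisons. Slc1a1 lay under the floor.

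Slc7a2 encodes CAT-2, a carrier of arginine, lysine and ornithine. It was 53 in wild type against 19 in the knockout at 8 h, and 83 and 28 at 24 h, so the knockout was lower at both times. The knockout was at least 2.41-fold lower at 8 h (-1.27 with the knockout value raised to the floor) and 2.96-fold lower at 24 h (-1.57). A second probe set read 42 against 15 at 8 h and 38 against 17 at 24 h, at least 1.91-fold and at least 1.73-fold lower. The remaining 2 probe sets of Slc7a2 lay under the floor, and with the mean of all 4, values under the floor included as measured, the differences were -0.86 and -0.81, short of the rule. Intensities this close to the floor are coarse, because the values are whole numbers. Some stroma, endothelial and leukocyte markers were lower on both knockout arrays, and some theca markers at 8 h alone. Their part in the differences of Slc7a2 was not tested either.

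Slc7a1 encodes CAT-1, the general carrier of cationic amino acids. It was 1071 in wild type against 1062 in the knockout at 8 h, and 1738 and 978 at 24 h. The genotypes were alike at 8 h and the wild-type array of 24 h stood above the other 3. The difference at 24 h was -0.83, short of the rule, while a second probe set, with 977 in wild type against 437 in the knockout, was 2.24-fold lower and past it. Slc7a3, the third cationic carrier, lay between 27 and 47, and Slc7a4, a family member with no settled substrate, was 227 and 164 at 8 h and 317 and 229 at 24 h, with a difference of -0.47 at both times on its chosen probe set. A second probe set of Slc7a4, at 200 and 127 and then 254 and 255, differed by -0.66 at 8 h and 0.01 at 24 h, and rose 2.01-fold in the knockout. Slc7a12, Slc7a13, Slc7a14 and Slc7a15 lay under the floor.

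The Slc38 family carries glutamine, alanine and other small neutral amino acids with sodium. None of its 9 genes differed between genotypes by the rule at 8 h or at 24 h, and several rose over time. Slc38a3 encodes SNAT3, a carrier of glutamine and histidine that can run in both directions. It was 230 and 254 at 8 h and 665 and 631 at 24 h, a rise of 2.89-fold in wild type and 2.48-fold in the knockout. Wild type and knockout stayed close at both times. A second probe set of Slc38a3 went from 19 to 34 in wild type and from 20 to 29 in the knockout, both short of the rule, and with the mean of both the rise in the knockout (0.92) was lost.

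Slc38a5 encodes SNAT5, of the same transport type. It was 620 in wild type against 1055 in the knockout at 8 h, and 1503 and 1238 at 24 h. The knockout was the higher at 8 h, by 0.77, and the lower at 24 h, by -0.28, neither past the rule. From 8 h to 24 h the gene rose 2.42-fold in wild type, and in the knockout it differed by 0.23.

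Slc38a10 rose 2.19-fold in the knockout, from 1232 to 2693, and went from 1280 to 1957 in wild type (0.61). Another of its probe sets, at 1400 and 2757 in the knockout, gave 0.98, just short of the rule, and the mean of its 7 probe sets gave 0.53. Slc38a1 and Slc38a2 are the widespread system A carriers. Slc38a1 was 1009 and 991 at 8 h and 1050 and 1408 at 24 h. Slc38a2 was 3552 and 3933 at 8 h and 3511 and 4000 at 24 h, and it lay within 0.19 of wild type at both times. Slc38a9, which reports lysosomal arginine to mTORC1, was 89 and 123 at 8 h and 149 and 174 at 24 h. A single one of the 7 probe sets of Slc38a9 passed the rule, rising 2.09-fold in wild type from 22, at the floor, to 46. That probe set went from 25 to 43 in the knockout, short of the rule. Slc38a4, a system A carrier, was 55 and 68 at 8 h and 45 and 36 at 24 h on its chosen probe set, which passed no comparison. Its second probe set read 76 and 64 at 8 h and 28 and 18 at 24 h, a fall of 2.71-fold in wild type and of at least 2.91-fold in the knockout. Slc38a6 and Slc38a7 did not pass the rule.

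Slc36 genes encode proton-coupled carriers found on lysosomes and the cell surface. Slc36a3 was 24 in wild type against 28 in the knockout at 8 h, near the floor, and 66 and 92 at 24 h. It rose 2.75-fold in wild type and 3.29-fold in the knockout, so both arrays of 24 h lay above both of 8 h. Slc36a1, a lysosomal carrier, was 199 and 204 at 8 h and 146 and 189 at 24 h, and Slc36a4 was 515 and 516 and then 362 and 458. Their genotype differences at 24 h were 0.37 and 0.34, short of the rule. Slc36a2 stayed between 22 and 31.

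Slc43a1 and Slc43a2 encode sodium-independent carriers of large neutral amino acids. Slc43a1 was 59 and 32 at 8 h and 78 and 54 at 24 h, lower in the knockout by 0.88 and 0.53. Slc43a2 was 79 and 87 at 8 h and 110 and 152 at 24 h. Slc43a3, a carrier of purine bases in the same family, was 337 and 212 at 8 h and 181 and 210 at 24 h. None of the 3 passed the rule.

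Of the 21 Slc6 genes, sodium- and chloride-coupled carriers of amino acids, neurotransmitters and related compounds, 13 lay under the floor on the 4 arrays. These were Slc6a3, Slc6a5, Slc6a11, Slc6a12, Slc6a13, Slc6a14, Slc6a16, Slc6a18, Slc6a19, Slc6a20a, Slc6a20b, Slc6a21 and the opposite-strand Slc6a19os. No Slc6 gene passed the rule in any of the 4 comparisons. Slc6a6, the taurine carrier, was 8118 and 7428 at 8 h and 5610 and 4505 at 24 h. A second probe set fell 2.03-fold in wild type, from 2549 to 1255, and 2.44-fold in the knockout, from 1820 to 747. These brightest probe sets were therefore lower at 24 h in both genotypes, 1 of them past the rule. Another fell short of the rule, from 93 to 68 in wild type and from 89 to 55 in the knockout. The last, near the floor, was flat, from 29 to 28 in wild type and from 28 to 29 in the knockout.

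Slc6a8, the creatine carrier, was 248 and 271 at 8 h and 266 and 411 at 24 h on its chosen probe set. At 24 h this was above wild type by 0.63, the highest genotype difference of the 63 genes among those above the floor. Its second probe set, at 249 and 305 and then 168 and 204, differed by 0.28 at 24 h. Over time in the knockout the chosen probe set gave 0.60 and the second -0.58. Slc6a9, a glycine carrier, was 331 in both genotypes at 8 h and 293 and 397 at 24 h. Slc6a15, a carrier of branched-chain amino acids and proline, was 80 and 147 at 8 h and 152 and 140 at 24 h. It was above wild type by 0.88 at 8 h, the highest difference of the 43 genes, and short of the rule. Slc6a2, Slc6a4, Slc6a7 and Slc6a17 lay between 32 and 113. The opposite-strand genes Slc7a6os and Slc36a1os passed no rule.

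Over time, wild type had 4 of 42 transporter genes higher at 24 h, Slc1a5, Slc36a3, Slc38a3 and Slc38a5, and 2 lower, Slc7a8 and Slc7a11. Those shares are 9.52% and 4.76%, where 5.55% of all 13054 genes were higher and 6.45% lower. In the knockout 4 of 43 were higher, Slc36a3, Slc38a3, Slc38a10 and Slc7a5, and 3 lower, Slc3a2, Slc7a8 and Slc7a11, shares of 9.30% and 6.98% where 6.85% of 12999 genes were higher and 5.26% lower. Slc36a3 and Slc38a3 rose in both genotypes, and Slc7a8 and Slc7a11 fell in both. The wild-type median change was 0.16 and that of the knockout 0.06, against 0.00 and 0.07 for all genes.

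**Figure D3:**
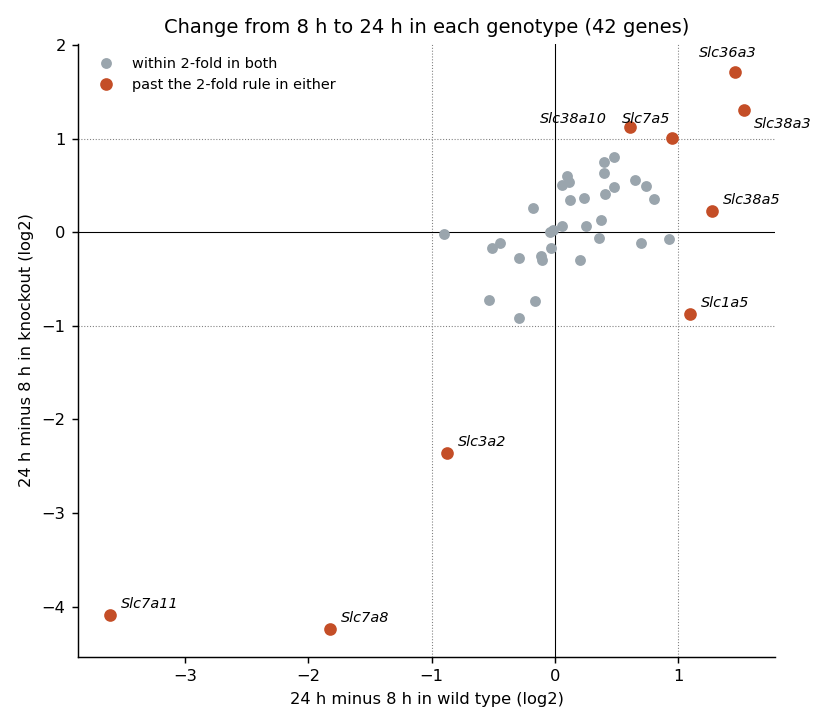
Log2 change from 8 h to 24 h in wild type (horizontal axis) and in the knockout (vertical axis) for the 42 transporter genes above the floor in both comparisons, each point 1 gene. The dotted lines mark 2-fold. Slc7a11 lies low on both axes, Slc7a8 and Slc3a2 lie lower on the knockout axis than on the wild-type axis, and Slc1a5 lies at 1.10 in wild type and -0.87 in the knockout.

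The change over time differed between genotypes by at least 1 on the log2 scale in 4 of 43 genes, each of them less upward or more downward in the knockout. The difference of the changes was -2.42 for Slc7a8, -1.97 for Slc1a5, -1.48 for Slc3a2 and -1.05 for Slc38a5. Slc6a15 stayed just short of the rule in the same direction. Over all 13316 genes 3.09% were below -1 by this measure and 5.04% above 1. None of the 43 transporter genes above the floor was above 1, the highest of them being Slc43a3 at 0.88.

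The enzymes around these carriers were measured on the same arrays. For all the lists below, the shares over all genes above the floor were 4.05% lower and 1.58% higher in the knockout at 8 h. At 24 h they were 3.92% and 3.13%. The all-gene medians were -0.01 at 8 h and 0.05 at 24 h. Over time, 5.55% of all genes rose and 6.45% fell in wild type, and 6.85% and 5.26% in the knockout. The lists are short, so a few genes make a large share of one. Of 24 genes of the amino acid response, the program that ATF4 runs when amino acids are short, 1 was lower (Atf5) and 1 higher (Atf3) in the knockout at 8 h, with a median of -0.002. At 24 h, 5 were lower and 1 higher, with a median of -0.33. The lower ones were Stc2, which encodes stanniocalcin-2 (138 against 32, 4.31-fold), the transcription factor gene Atf5 (776 against 217, 3.58-fold), Cth, an enzyme of cysteine synthesis (138 against 40, 3.45-fold), Asns, the asparagine synthetase (581 against 194, 2.99-fold), and Psat1 of serine synthesis. The higher one was the lipoprotein receptor gene Vldlr (653 against 1861, 2.85-fold). Atf4 itself was 2113 in wild type against 1344 in the knockout at 24 h, short of the rule. Of 18 aminoacyl-tRNA synthetase genes, Kars was lower at 24 h (878 against 388, 2.26-fold) and the median was -0.26.

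Of the glutathione synthesis genes, Gclc and Gclm fell over time in both genotypes, as Slc7a11 did. Gclc and Gclm encode the subunits of glutamate-cysteine ligase. Gclc was 2179 in wild type against 3221 in the knockout at 8 h, and 683 and 510 at 24 h, a fall of 3.19-fold and 6.32-fold. Gclm went from 1041 to 469 in wild type (2.22-fold) and from 1657 to 430 in the knockout (3.85-fold). Of the 11 genes of this list, 4 fell in wild type against 2 in the knockout, and none rose in either, with medians of 0.06 and -0.25. Between genotypes, 2 of 11 were lower in the knockout at each time, Chac2 and Dpep1 at 8 h, and Gss, the glutathione synthetase (289 against 92, 3.14-fold), and Cth at 24 h.

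Of 15 NRF2 target genes, a list that holds Slc7a11, Gclc and Gclm as well, 5 fell in wild type and of 14 above the floor 4 fell in the knockout. Srxn1, which encodes sulfiredoxin, was 220 in wild type against 648 in the knockout at 8 h, 2.95-fold higher, and Gsta3 was at least 2.86-fold lower. At 24 h Gstm1 was higher (1381 against 3285, 2.38-fold). The medians between genotypes were 0.02 at 8 h and -0.10 at 24 h.

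In the list of arginine, proline and polyamine enzymes, 4 of 11 were lower at 24 h in the knockout and none was higher, with a median of -0.41. Asl of the urea cycle was 1082 against 293 (3.69-fold), Prodh, the proline dehydrogenase, 448 against 138 (3.25-fold), Arg1, an arginase, 73 against 23 (3.17-fold) and Srm, the spermidine synthase, 1946 against 718 (2.71-fold). These 4 rose in wild type from 8 h to 24 h, by 2.02-fold (Srm) to 7.23-fold (Prodh). In the knockout Prodh rose 2.26-fold and the other 3 did not pass the rule.

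Enzymes that use glutamine, glutamate and aspartate had Got1 (958 against 312, 3.07-fold) and Asns lower at 24 h of 12, with a median of -0.07, and Gfpt2 lower at 8 h (627 against 216, 2.90-fold). Branched-chain enzymes had Ivd (951 against 346, 2.75-fold) and Bckdhb (2.21-fold) lower at 24 h of 14, with a median of -0.44, and Bcat2 lower at 8 h (2.01-fold). Glycine and serine enzymes had Gldc, of the glycine cleavage system, higher at 8 h (195 against 432, 2.22-fold) and at 24 h (19 against 38, at least 1.73-fold) and Psat1 lower at 24 h, of 10. Taurine and cysteine enzymes had Bhmt, Cth and Got1 lower at 24 h of 9, and Cdo1, which opens the path to taurine (280 against 109, 2.57-fold), and Bhmt lower at 8 h. The lists overlap: Cth, Got1, Asns and Psat1 each belong to several of them and are counted in each.

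Of 26 genes of amino acid sensing by mTORC1, none was called at 8 h, and Rragd, which encodes a Rag GTPase, was higher in the knockout at 24 h (246 against 830, 3.37-fold). Among 15 other amino acid carriers above the floor, Slc16a10, a carrier of aromatic amino acids, was higher in the knockout at 8 h (111 against 282, 2.54-fold) and at 24 h (53 against 118, 2.23-fold), and the peptide carrier gene Slc15a2 was higher at 24 h (2.19-fold). These 2 carriers went opposite to the 4 transporter genes that were lower.

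**Figure D4:**
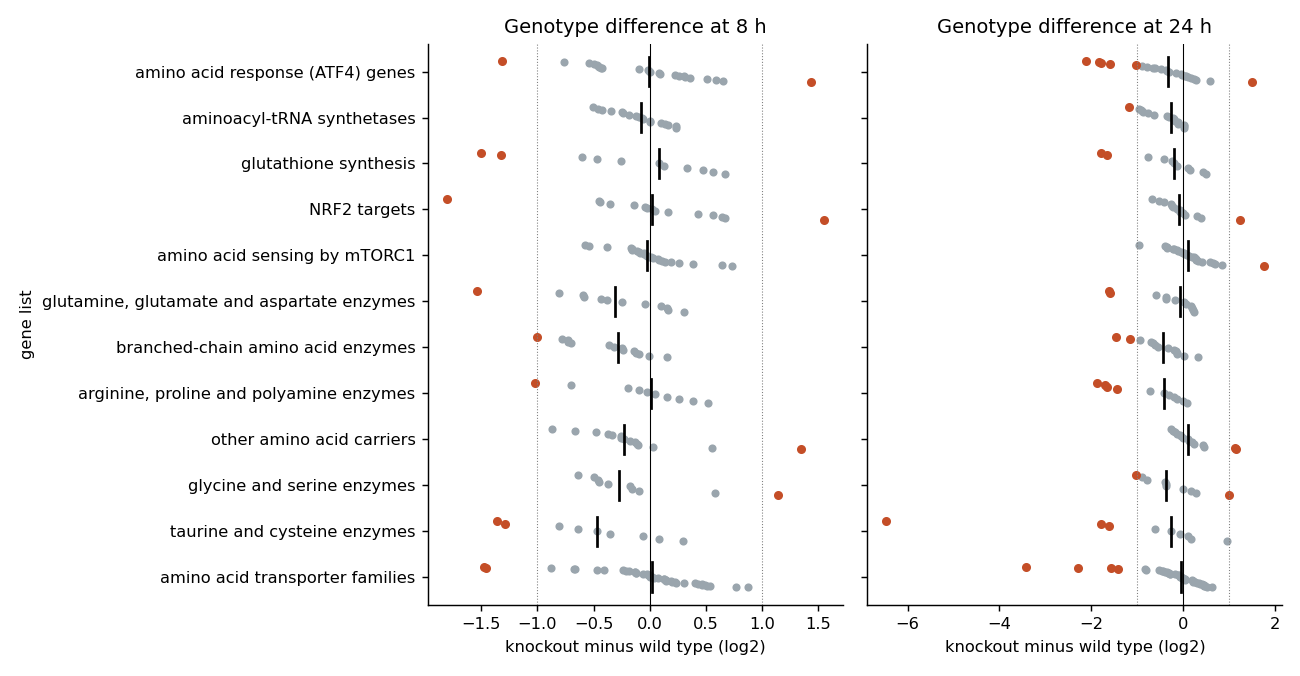
Log2 difference between knockout and wild type at 8 h (left) and 24 h (right) for the genes above the floor in 11 lists of amino acid metabolism and in the transporter families (bottom row). Each point is 1 gene, points past 2-fold are orange, and the black bar is the list's median. The transporter families have a median near 0 at both times with 4 genes past 2-fold on the low side at 24 h, and the median of the amino acid response list moves from -0.002 to -0.33.

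The knockout array of 4 h has no wild-type partner here, and its scale differs, so it was compared with the knockout at 8 h only after quantile normalization of all 5 arrays, a step chosen after the data were seen. On that scale 5 of 47 transporter genes were higher at 8 h than at 4 h (Slc1a5, Slc6a6, Slc7a8, Slc38a6 and Slc38a9) and 6 were lower (Slc7a1, Slc7a2, Slc7a4, Slc7a7, Slc38a5 and Slc6a15). The background was high, with 17.9% of 13746 genes higher and 11.9% lower. Slc6a15 was lower by 8.78-fold (2293 at 4 h and 147 at 8 h as deposited), Slc7a1 by 6.39-fold (12017 and 1062) and Slc38a5 by 4.44-fold (8536 and 1055). On these probe sets the 3 genes stood higher at 4 h than at either later time in the knockout, and a wild-type array of 4 h was not analysed here.

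Probe sets of 1 gene disagreed more in this comparison than in the others, with an SD of 0.892 (log2) over 17 genes. Slc6a6 was 4.04-fold higher at 8 h on its chosen probe set and 2.31-fold lower on another, and Slc7a11 differed by 0.10 on its chosen probe set and was 5.88-fold higher at 8 h on the second. Slc7a1 was lower on both of its probe sets above the floor, by 6.39-fold and 1.77-fold. The sources used here do not give whether the 4 h array was processed together with the rest. The part of its processing in these differences was not tested.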

How the data were processed

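Total RNA (5 ug) was extracted with RNeasy kits and labelled as biotinylated cRNA, per the labels' protocols. Each deposited value is an intensity that the authors made with affy and RMA, tools listed without versions in the submitters' processing notes. The table holds linear whole numbers, and all comparisons used their log2. Groups came from the sample titles. Of 45101 probe sets, 34958 had 1 gene symbol in the platform annotation, 932 several and 9211 none listed, and 34754 Entrez identifiers matched the RefSeq table of GRCm38.p6, which updated symbols. No build is stated for the arrays.

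Genes were called by a 2-fold rule with a floor, the 40th percentile (intensity 22), with no test. Described in full are genes called in any of the 4 comparisons or in the difference of changes, the partners of Slc3a1 and Slc3a2, and the members with the highest mean intensity. In the 11 lists of amino acid metabolism, up to 4 called genes of largest difference were described per comparison. The other transporter genes were named to account for every member, with values or ranges, and some second probe sets and list genes were chosen after their values were seen. The 9 marker lists served as a check of the cells. The members and lists were chosen with earlier results of these data known. Alternatives were other probe set rules, scalings, folds and floors. Python 3.11.15, pandas 2.3.3 and numpy 2.4.6 were used.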

Additional observations from a re-analysis of the deposited data

Results flagged for a closer look

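In 4 genes the genotype difference shifted by at least 1 on the log2 scale between 8 h and 24 h, and either the changes over time or the genotype differences at both times had opposite signs. Each direction rests on a single array per group, and none of these differences was tested. Slc1a5 rose in wild type (1.10) and lay lower at 24 h in the knockout (-0.87), a difference of the changes of -1.97. The genotype difference of Slc7a8 was 0.13 at 8 h and -2.29 at 24 h, apart by -2.42. That of Slc3a2 was 0.07 and -1.41, apart by -1.48. That of Slc38a5 was 0.77 and -0.28, apart by -1.05, so the arrays changed order and lay closer at 24 h. Slc7a8 and Slc3a2 have a single probe set each. Their values at 8 h were smaller than the SD of 0.185 between probe sets of other transporter genes.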

How the results depend on the processing

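Each call was repeated under 12 other settings, 3 of them chosen after seeing the data. Of 23 calls of single transporter genes, none reversed, and 254 of 276 repeats kept the call. A lower fold or floor, or leaving out the opposite-strand genes, could not end a call. A change of fold or floor could not reverse one. Many repeats therefore kept the call by construction. At a 1.5-fold threshold 2 genes were higher and 5 lower in the knockout at 8 h, 1 was higher at 24 h, 11 rose and 4 fell in wild type, 8 rose and 7 fell in the knockout, and the changes differed upward in 1 and downward in 7. At 3-fold 0 were lower at 8 h, 2 were lower at 24 h, 0 rose in wild type, 1 rose in the knockout and the changes differed downward in 2. These thresholds move counts by construction. Averaging a gene's probe sets left 0 genes lower at 8 h and 2 rising in the knockout. With the floor at the 60th percentile 1 was lower at 8 h, and with the floor at the 25th percentile the changes differed upward in 1. The other counts stayed within 1.5 times. Median centring ended the call of Slc7a5 over time in the knockout (0.96). No paired analysis was possible because each group has 1 array. Values near or under the floor limit Slc7a2, Slc36a3 at 8 h, Slc7a11 at 24 h and Slc1a5 in the knockout at 24 h (30).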
